A study of Caenorhabditis elegans with 6 samples.

Results

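The genes of the DBL-1 pathway, the TGF-beta signalling pathway that sets body size in C. elegans, were examined for occupancy by ELT-3, a GATA-type transcription factor of the epidermis. The set held 9 of the 19973 protein-coding genes on the nuclear chromosomes and was chosen by gene name: dbl-1, lon-2, sma-6, daf-4, sma-2, sma-3, sma-4, sma-9 and lon-1. All 9 were found in the annotation (Ensembl release 115 on WBcel235, which is the ce11 build of the deposited peaks). The window of a gene ran from 5000 bp upstream of its first annotated 5′ end to its 3′ end, and a peak was counted for each gene whose window held its summit. Chromatin immunoprecipitation sequencing (ChIP-seq) had been done on whole L3 larvae, males and females pooled, of the transgenic strain OP75, with the genotype unc-119(ed3) III; wgIs75. The strain stably expresses ELT-3 with GFP and FLAG joined to its C-terminus, and the labels give the antibody as elt-3 and not the promoter or insertion site of the transgene. There was 1 group of 6 libraries from 4 biological replicates, numbered 1, 2, 4 and 5, of which replicate 2 was 3 technical libraries counted once. No second condition was present, and the control came from another experiment and was not analysed here.

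DBL-1 is a secreted ligand of the bone morphogenetic protein type, made mainly by neurons, and it acts on the epidermis. It binds a receptor of a type I and a type II subunit, which activates Smad proteins that enter the nucleus and regulate transcription with cofactors. Loss of the signal gives small animals (Sma), and excess signal or loss of its inhibitors gives long ones (Lon). The epidermis, which makes the cuticle, is the main tissue in which the receptor and Smads act on body size, and it is also where ELT-3 is expressed.

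Of the 9 genes, 3 had a summit of the optimal list in their window: the Smad genes sma-3 and sma-4, and sma-9, which encodes a nuclear zinc finger cofactor of the Smads. The optimal list, made by the authors with the irreproducible discovery rate procedure, held 1047 peaks with signal values from 39.9 to 234, and these were the 1047 strongest of the 14525 peaks called on all replicates pooled. The signal value is the authors' strength of a peak. The 3 of 9 genes, or 33.3%, compare with 1522 of the 19973 protein-coding genes, or 7.62%. The 3 windows held 5 optimal summits, of which sma-9 had 3, sma-3 had 1 and sma-4 had 1. A window with 3 or more optimal summits was found for 1 of the 9 genes (sma-9) and for 46 of all genes, or 0.230%. The ligand, the LON-2 inhibitor, both receptor subunits, the Smad gene sma-2 and the target gene lon-1 had no optimal summit. With few members chosen by name and earlier results of these data known, no test of the set was made. In whole animals, a peak of few cells and a weak peak of many cells cannot be told apart.

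At the lower bar of the pooled list, which goes down to a signal of 15.8, 8 of the 9 genes (88.9%) had a summit, and 62.2% of all protein-coding genes had one. Only dbl-1 had none. The member windows held 23 pooled summits, which is 2.32 per 10 kb of window, and the windows of all genes held 24645 in 164290164 bp, with a summit or base in several windows counted for each. For optimal summits the density was 0.505 per 10 kb in the member windows and 0.111 per 10 kb over all genes. Without sma-9, a choice made after its peaks were seen, the members' values were 2.12 pooled and 0.249 optimal summits per 10 kb. The optimal value of the remaining 8 genes rested on 2 summits.

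Window length moved with these counts. The member windows had a median length of 8973 bp, and those of all genes 7027 bp. When all genes were split by window length into 5 classes of like size, 10.4% of the genes in the longest class, which held sma-9, sma-2, daf-4 and lon-2, had an optimal summit. In the next class, which held sma-3, sma-4, sma-6 and lon-1, the share was 8.20%, and in the other classes it was 6.97%, 5.96% and 6.58%, from the shortest up. Genes with 3 or more optimal summits made 0.526% of the longest class. Pooled summits were not split by window length, so the 62.2% of all genes has no value for long windows beside it.

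**Figure D1:**
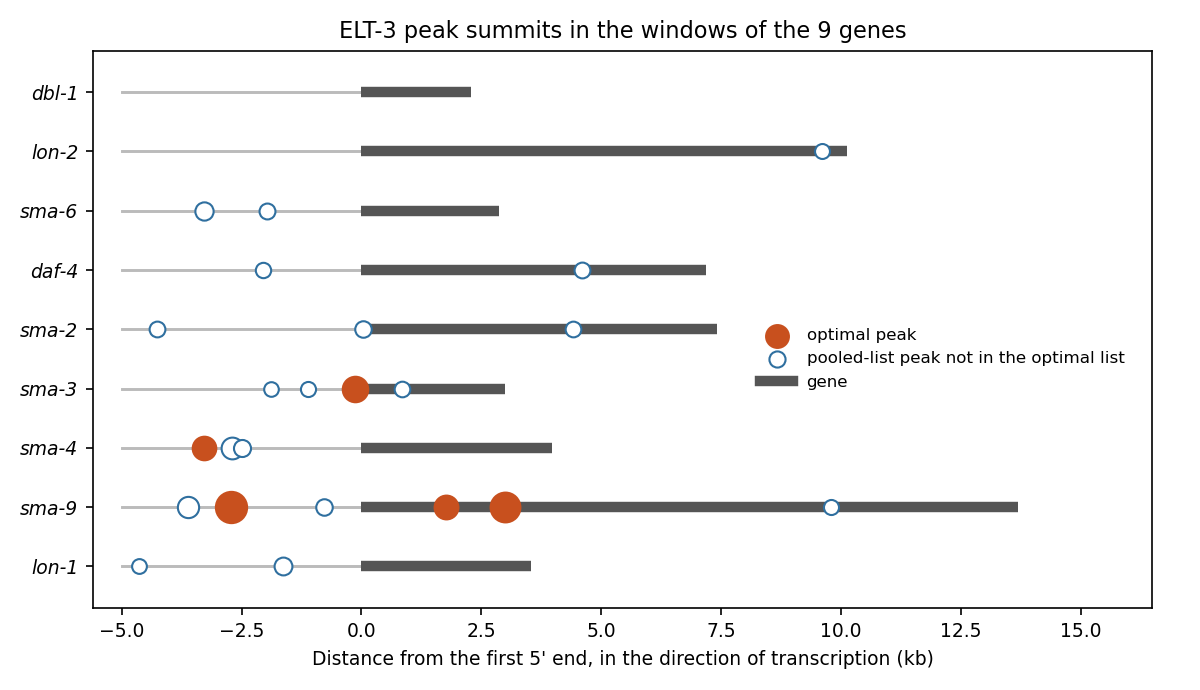
Peak summits in the windows of the 9 genes, drawn along the distance in kb from the first 5′ end; thick lines are the genes and thin lines the upstream 5000 bp. Filled circles are optimal peaks and open circles other peaks of the pooled list, with an area proportional to signal. The 5 filled circles lie at sma-3, sma-4 and sma-9, and dbl-1 has no circle.

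The sequences under the 5 optimal summits are shown because they carry the strongest occupancy at these genes. Each is the reference genome (RefSeq, WBcel235, plus strand) from 50 bp left to 50 bp right of the summit, 101 bp in all. Capitals mark the GATA motif WGATAR, the core GATA with A or T before it and A or G after it, searched on both strands. The windows are chrX:10766507-10766607, chrX:10772218-10772318, chrIII:6864056-6864156, chrX:10771001-10771101 and chrIII:5812899-5812999, in the order of the lines.
sma-9, 2725 bp upstream: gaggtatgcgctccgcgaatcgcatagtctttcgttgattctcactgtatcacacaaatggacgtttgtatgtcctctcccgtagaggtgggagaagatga
sma-9, 2986 bp downstream: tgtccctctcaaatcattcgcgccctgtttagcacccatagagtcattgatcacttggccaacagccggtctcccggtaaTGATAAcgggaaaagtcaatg
sma-3, 138 bp upstream: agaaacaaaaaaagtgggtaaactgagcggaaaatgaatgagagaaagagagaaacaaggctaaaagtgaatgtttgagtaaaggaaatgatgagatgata
sma-9, 1769 bp downstream: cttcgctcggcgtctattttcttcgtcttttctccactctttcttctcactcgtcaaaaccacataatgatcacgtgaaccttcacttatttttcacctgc
sma-4, 3283 bp upstream: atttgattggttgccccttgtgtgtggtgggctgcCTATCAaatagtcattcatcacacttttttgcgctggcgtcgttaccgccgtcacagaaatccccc

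A WGATAR motif stood within 50 bp of 2 of the 5 summits, and within 50 bp of 413 of all 1047 optimal summits (39.4%). The match at the inner sma-9 summit was TGATAA, centred 32.5 bp to its right. The match at sma-4 was TGATAG on the minus strand, centred at −12.5 bp from the summit. The other summits, including the strongest of the set, had no match in this window. The bare core GATA, which every WGATAR match contains, was found at 4 of the 5 summits (80.0%) and at 59.8% of all optimal summits. Among the 18 member summits that were in the pooled list and not in the optimal list, 3 (16.7%) held WGATAR. Of all pooled summits, with the optimal ones included, 25.5% did. The repeat GAGAGA, searched on both strands, was present at 1 of the 5 optimal summits, that of sma-3, and at 20.8% of all optimal summits. It was also found at 4 of the 18 weaker member summits (22.2%), and at 10.8% of all pooled summits, with the optimal ones included. The 5 sequences had a median GC content of 48.5%, and all optimal summits had one of 43.6%.

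DBL-1, the ligand, had the least ELT-3 signal at its gene of the 9. The dbl-1 gene (WBGene00000936, V, 6758135 to 6760418, plus strand) is compact, with 1 annotated transcript. No summit of the optimal or the pooled list fell in its window. Its strongest peaks in the replicate lists, each of which held 30000 peaks and background regions, ranked 12938, 28750 and 7725 in replicates 1, 4 and 5, and the replicate 2 list had none. The nearest optimal summit lay 46181 bp outside the window, upstream.

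LON-2 is a cell surface glypican that lowers DBL-1 signalling, and its loss makes animals long. The lon-2 gene (WBGene00003056, X, 4738964 to 4749083, minus strand) had 1 pooled summit, of signal 17.2, in the lower part of the list at rank 11387 of 14525. It lay in an intron of lon-2, 9602 bp downstream of the 5′ end, and was nearer to the 5′ end of aman-1, at 6386 bp. Matching peaks ranked 23441, 18253 and 22614 in replicates 1, 2 and 4, with none in replicate 5. A pair of WGATAR matches stood within 50 bp of this summit (chrX:4739431-4739531, plus strand), the sequence of which is printed because it is the weakest leading peak of a member and yet holds the motif in both orientations.
lon-2, intron: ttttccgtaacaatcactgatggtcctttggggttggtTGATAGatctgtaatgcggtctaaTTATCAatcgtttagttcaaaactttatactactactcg

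The receptor genes had weak peaks only. SMA-6 is the type I receptor subunit of the pathway. The sma-6 gene (WBGene00004860, II, 6324484 to 6327355, plus strand) had 2 pooled summits, of which the stronger had a signal of 25.6 and rank 3357. That summit was 3289 bp upstream of sma-6 and 36 bp upstream of the 5′ end of efr-3, so it lay nearer to another gene. Its ranks were 2057, 15873 and 2716 in replicates 2, 4 and 5, and replicate 1 had no peak there. An optimal summit of signal 52.8 lay 4273 bp past the 3′ end of sma-6, outside the window and nearest to the 5′ end of set-4.

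DAF-4 is the type II receptor subunit, and it also serves the separate TGF-beta pathway that controls the dauer larva. The daf-4 gene (WBGene00000900, III, 5625135 to 5632323, plus strand, 7 annotated transcripts) had pooled summits of signal 19.2 and 18.1. That of 19.2 lay in coding sequence, 4601 bp downstream of the first 5′ end and 1196 bp downstream of an inner one. That of 18.1 lay 2050 bp upstream of the first. The stronger was listed at rank 5016 in replicate 4 and 14640 in replicate 5, and not in replicates 1 and 2. Over all genes, 57.9% had a lower strongest signal than daf-4, and 79.4% a lower one than sma-6.

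The Smads carry the signal to the nucleus, and the 3 Smad genes, all on III, differed in their peaks. SMA-2 and SMA-3 are receptor-regulated Smads, and SMA-4 is the common partner Smad. The sma-2 gene (WBGene00004856, III, 8749680 to 8757089, plus strand) had 3 pooled summits of signal 20.9, 19.1 and 18.9 and no optimal one. The strongest lay 25 bp inside the 5′ UTR of sma-2, in an intron of the overlapping gene ugtp-1, and was listed in replicate 5 only, at rank 4451. The nearest optimal summit was 86139 bp outside the window, the farthest of the 9 genes.

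The sma-3 gene (WBGene00004857, III, 6860974 to 6863968, minus strand) had an optimal peak at its promoter. The peak (III, 6863938 to 6864273) had a signal of 49.9, rank 556 of 1047, and its summit at 6864106 was 138 bp upstream of the single annotated 5′ end. It was also in the window of a neighbour, clec-158, a C-type lectin gene. Matching peaks ranked 3210, 19381, 629 and 3172 in replicates 1, 2, 4 and 5. Only replicate 4 held it among its strongest peaks, taken as the top 1047, the size of the optimal list. Further pooled summits at 838 bp downstream, 1107 bp upstream and 1888 bp upstream had signals of 18.7, 17.5 and 16.4, far below that of the promoter peak.

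The sma-4 gene (WBGene00004858, III, 5816232 to 5820204, plus strand) had its optimal peak farther out. The peak (III, 5812781 to 5813116) had a signal of 42.7, rank 851 of 1047, and its summit at 5812949 lay between genes, 3283 bp upstream of the sma-4 5′ end. It was nearer to the 5′ end of R12B2.7, at 2096 bp. The rank was 196 in replicate 5 and 5726 in replicate 4, and replicates 1 and 2 listed no peak within 100 bp. A second sma-4 summit, 2707 bp upstream with a signal of 36.4 and pooled rank 1344, was short of the lowest optimal signal of 39.9, and was listed in replicate 5 only, at rank 1289. The summit 2485 bp upstream had a signal of 22.3. The 3 summits thus lay within 1 upstream stretch, and replicate 5 held the highest rank for the optimal one.

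SMA-9, a homologue of Drosophila Schnurri, is a large zinc finger protein that works with the Smads in the nucleus, and its gene had the most ELT-3 peaks of the set, in the longest window, and the strongest one. The sma-9 gene (WBGene00004862, X, 10769282 to 10782973, plus strand) has 16 annotated transcripts with 6 distinct 5′ ends. Its window held 6 pooled summits, 3 of them optimal, and the optimal ones spanned 5711 bp. Per 10 kb of window, pooled summits numbered 3.21 at sma-9, 5.00 at sma-3 and 3.34 at sma-4, so sma-9 did not lead by that measure, and optimal summits numbered 1.60, 1.25 and 1.11 at the same genes. No other gene had the strongest of them in its window.

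The strongest sma-9 peak (X, 10766389 to 10766724, summit 10766557) lay between genes, 2725 bp upstream of the first 5′ end, with a signal of 75.0 and rank 157 of 1047. It ranked 5502, 47, 1604 and 142 in replicates 1, 2, 4 and 5, so 2 of the 4 replicates held it among their strongest peaks. The next (X, 10772100 to 10772435, summit 10772268) had a signal of 68.2, rank 210, and lay in an intron, 2986 bp downstream of the first 5′ end and 813 bp upstream of an inner one. Its ranks were 364, 11158, 408 and 896 in replicates 1, 2, 4 and 5. Thus 3 replicates held the intron peak among their strongest, and the exception, replicate 2, was the replicate in which the upstream peak ranked highest.

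The weakest optimal peak of sma-9 (X, 10770883 to 10771218, summit 10771051), in an intron 1769 bp downstream of the first 5′ end, had a signal of 43.5 and rank 808. It ranked 17780, 1172 and 311 in replicates 1, 4 and 5 and was not listed in replicate 2. The summit 3612 bp upstream had a signal of 34.7 and pooled rank 1499, below the optimal list, and held 3 WGATAR matches within 50 bp. It was listed in replicates 4 and 5, at ranks 10458 and 877. The remaining pooled summits of sma-9, 779 bp upstream and 9789 bp downstream, had signals of 20.9 and 17.4. That of 17.4 was 1169 bp downstream of an inner 5′ end.

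**Figure D2:**
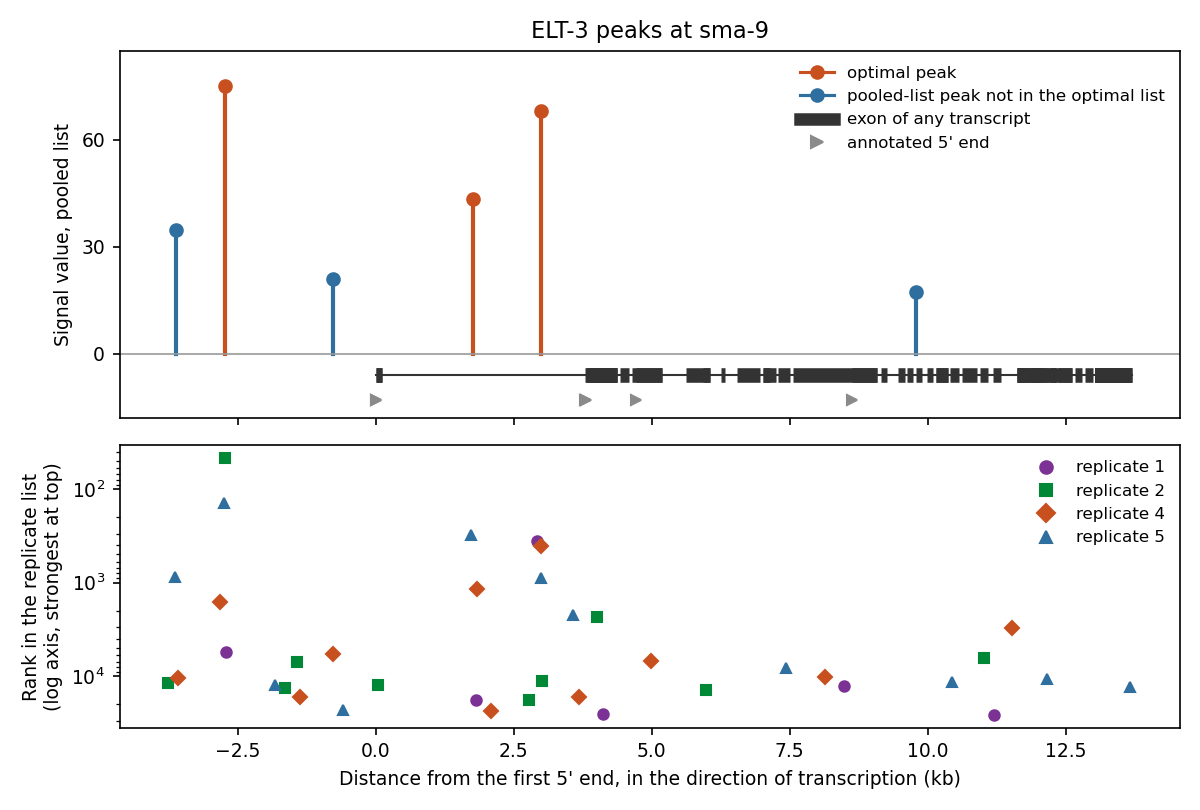
Peaks along sma-9, with the distance in kb from its first 5′ end on the horizontal axis; the upper panel gives the pooled-list signal, exons and annotated 5′ ends, and the lower panel the rank of replicate peaks on a log axis, strongest at the top. Optimal peaks of signal 75.0, 43.5 and 68.2 stand upstream of the gene and in its 5′ part, and the best rank of each replicate (47 to 408) is at the peak of signal 75.0 or that of 68.2.

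LON-1 is a secreted protein of the CRISP family, made in the epidermis among other tissues, whose expression the pathway represses and whose loss makes animals long. The lon-1 gene (WBGene00003055, III, 5474476 to 5478005, plus strand, 3 annotated transcripts) had no optimal summit in its window. Its pooled summits, 1633 bp and 4633 bp upstream, had signals of 24.4 and 16.8. The stronger was listed in replicate 4 only, at rank 1940, and the weaker in replicate 5, at rank 2718. A strong optimal peak of signal 84.0, rank 109 of 1047, lay 9431 bp upstream, which is 4431 bp outside the window, and was nearest to the 5′ end of F48E8.2.

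In the replicate lists, the strongest peak anywhere in a gene's window gave a second measure that did not use the pooled calls. That strongest peak could lie at a different place in each replicate. The rank of that peak in each replicate list, with an unlisted gene placed past the end of the list, had a median of 253 for sma-9, 2329 for lon-1, 2899.5 for sma-2, 3083 for sma-3, 3200 for sma-6, 4388.5 for sma-4, 7535.5 for lon-2, 8974 for daf-4 and 20844 for dbl-1. The median over all genes was 10611.5, which splits all genes evenly, and 8 of the 9 genes ranked above it and dbl-1 below. The member windows were longer, with a median of 8973 bp against 7027 bp for all genes. A longer window has more room for a strong peak, and the measure was not adjusted for window length. The share of all genes with a smaller median rank, meaning a stronger peak, was 1.14% for sma-9, 9.95% for lon-1 and 84.4% for dbl-1. A place in this order need not stand for a recurring peak. At lon-1, the ranks of 1940 in replicate 4 and 2718 in replicate 5 were those of different summits. At sma-2, the ranks of 2594, 2841 and 2958 in replicates 1, 2 and 5 matched no pooled summit.

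In this order, only the first gene had ranks that did not overlap those of its neighbour. The order was made from these same ranks, so the gap describes them and is not a separate finding. The sma-9 ranks of 364, 47, 408 and 142 in replicates 1, 2, 4 and 5 did not overlap those of lon-1, the next gene, at 9891, 1874, 1940 and 2718. They did overlap those of sma-4, which were 3051, 5726 and 196 in replicates 2, 4 and 5, with no peak in replicate 1. The sma-9 ranks came from 2 summits, 47 and 142 from the upstream one and 364 and 408 from that 2986 bp downstream. Taken singly, these summits ranked as low as 5502 and 11158, and each then overlapped the lon-1 ranks. The sma-9 window was also longer, at 18692 bp against 8530 bp for lon-1. From lon-1 to dbl-1, each gene's range overlapped that of its neighbour in the order. The pooled signal gave another order, in which sma-3 and sma-4 stood directly after sma-9, with 95.7% and 93.7% of all genes lower, against 98.6% for sma-9, and sma-6, lon-1 and sma-2 followed at 79.4%, 76.9% and 66.1%.

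**Figure D3:**
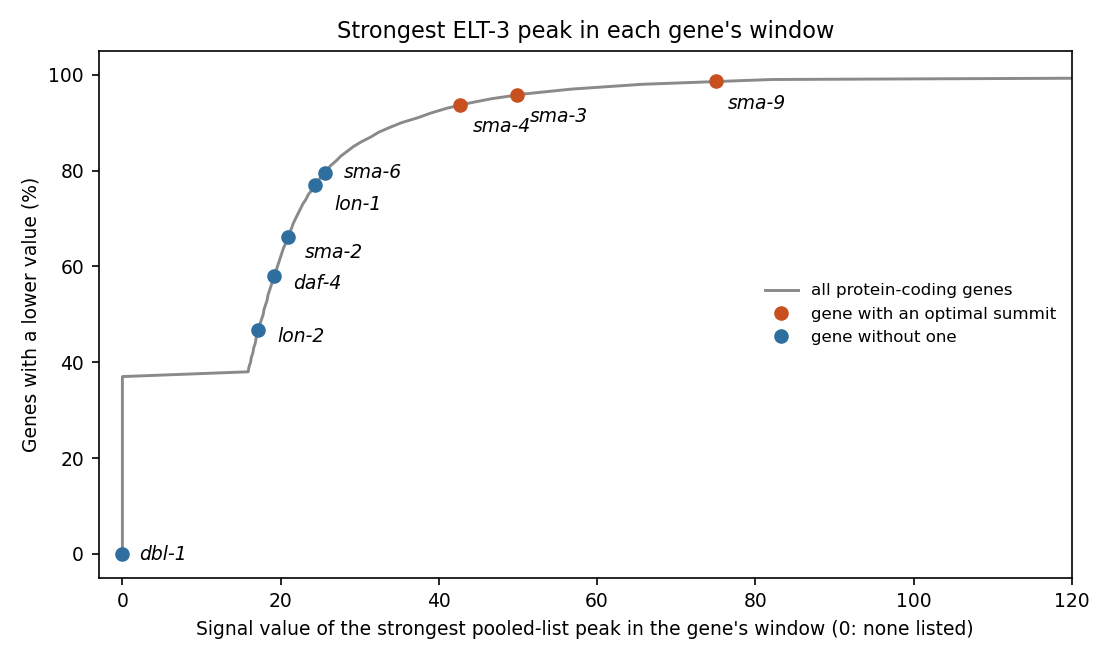
Share of protein-coding genes (vertical axis, percent) whose strongest pooled-list peak has a lower signal than the value on the horizontal axis; the grey line is all genes and the points are the 9 pathway genes, orange where an optimal summit was present. The sma-9 point lies at a signal of 75.0, above 98.6% of genes, and dbl-1 lies at 0 because no peak was listed.

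A strongest peak of at least 2 replicates, meaning a top 1047 peak in each of them, was in the window of 1 of the 9 genes, sma-9 (11.1%), and of 7.45% of all genes. The peaks counted could lie at different places in the window. Taking replicates 1, 2, 4 and 5 singly, 1, 1, 2 and 2 pathway genes had a strongest peak (SD 0.577, n = 4). It was sma-9 in every replicate, with sma-3 added in replicate 4 and sma-4 in replicate 5. Over all genes the share with a strongest peak was 7.57%, 7.71%, 7.30% and 7.63% in the same replicates. The sma-3 and sma-4 peaks thus rested on 1 replicate each at this rank.

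The 5 optimal summits were listed at any rank in 4, 3, 5 and 5 cases in replicates 1, 2, 4 and 5. Among the strongest peaks were 1, 1, 2 and 4 of them. Replicates 4 and 5 also held more of the whole optimal list among their strongest peaks, 61.7% and 58.4%, than replicates 1 and 2, at 31.4% and 35.2%. Because the optimal list was made from these replicates, their ranks describe its peaks and are not independent of them.

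**Figure D4:**
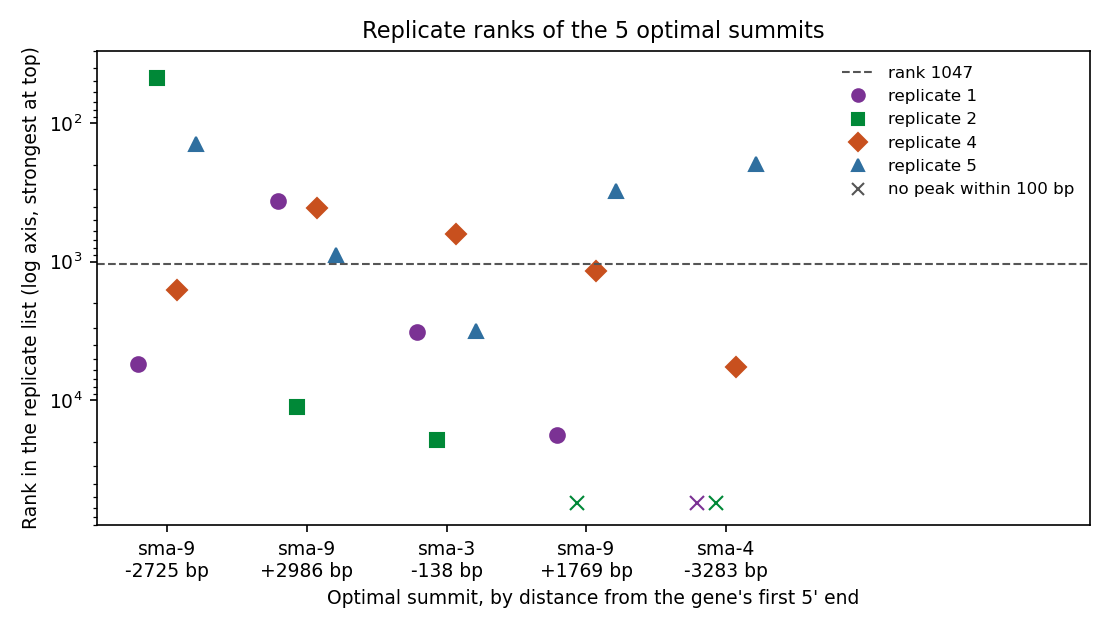
Rank of the matching replicate peak (log axis, strongest at the top) for each of the 5 optimal summits, ordered by signal, with 1 symbol per replicate; crosses stand for replicates with no peak within 100 bp, and the dashed line is rank 1047. The sma-9 intron peak at 2986 bp has 3 symbols above the line, the upstream sma-9 peak has 2, and the others have 1 each.

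The wider pathway was described with 19 modifiers of DBL-1 signalling and body size and with 10 genes of the other TGF-beta family pathways. Of the 19 modifiers, 3 (15.8%) had an optimal summit, against 7.62% of all genes: lon-3, sma-10 and egl-4. The windows of 16 of the 19 were in the longest class, in which 10.4% of genes had an optimal summit. The lon-3 gene encodes a cuticle collagen whose loss makes animals long, and its summit, of signal 53.0, was 1090 bp upstream, in an intron of ogdh-2. It ranked 609, 604 and 1586 in replicates 1, 4 and 5 and was not listed in replicate 2. SMA-10 is a membrane protein that promotes DBL-1 signalling through the receptors, and its gene had a summit of signal 42.4 only 82 bp upstream, with 2 WGATAR matches. That summit ranked 14694, 1420 and 743 in replicates 1, 4 and 5, was not listed in replicate 2, and so was among the strongest peaks of replicate 5 only. EGL-4 is a cGMP-dependent protein kinase that limits body size, and its summit was near the bottom of the optimal list, at rank 1033. The egl-4 summit was in an intron, 11452 bp downstream of the first 5′ end and 966 bp downstream of an inner one. It ranked 287, 14888, 540 and 3964 in replicates 1, 2, 4 and 5. None of the 10 other TGF-beta genes had an optimal summit, a count too small to set against the 7.62% of all genes. The counts of the 9 members and the 19 modifiers are also small and were not tested against that share. Of the 19 modifiers, 16 (84.2%) had a pooled summit, and 88.9% of the 9 members had one. A pooled summit was present at 9 of the 10 other TGF-beta genes, against 62.2% of all genes. The strongest of these were at daf-12, a nuclear hormone receptor gene, with a signal of 39.1 and pooled rank 1100, and at daf-5, which encodes a Sno/Ski-type factor of the dauer pathway, with 33.9. Peaks among the strongest of at least 2 replicates were in the windows of 3 of the 19 modifiers (15.8%), kin-29, egl-4 and lon-3, and of 2 of the 10 other genes, daf-5 and daf-12. The share was 7.45% over all genes and 11.4% in the longest window class, which held 6 of the 10 other genes. The strongest peak at kin-29, which encodes a protein kinase that affects body size, ranked 1025, 6669, 258 and 418 in replicates 1, 2, 4 and 5. The genes kin-29, daf-5 and daf-12 were named after their values were seen.

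Across the 4 replicates, the genes whose strongest-peak ranks were most like those of sma-9 were cmd-1, the calmodulin gene, then pro-1 and R166.3, among 13180 genes compared. Likeness was the distance between log10 ranks over the 4 replicate lists, which was 0.255, 0.274 and 0.341. The cmd-1 ranks were 515, 36, 281 and 126 in replicates 1, 2, 4 and 5. Because the genes were chosen for this likeness, a shared order of replicates is not a separate finding. The pro-1 ranks were 405, 84, 450 and 173, and R166.3, also on II, shared 3 of those 4 values. Genes whose windows hold the same peaks would share ranks in this way, so pro-1 and R166.3 may not be separate cases. The windows of cmd-1, pro-1 and R166.3 each held 1 optimal summit, which may be the same one for pro-1 and R166.3, against 3 at sma-9.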

How the data were processed

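ELT-3 ChIP-seq peaks of 1 group (6 libraries, 4 replicates) were used as deposited on ce11. The lists comprise peaks with background for each replicate, a call on pooled reads, and the optimal peaks past the irreproducible discovery rate threshold, per the file headers. The deposited signal value is the authors' peak strength, and served to order peaks inside a list. The replicate 2 list was assigned from the listings of its 3 libraries, which name its alignment. Read depth is unknown; peak caller and aligner are also not given in the sources used here. Whether the replicates were separate cultures is not stated, and technical spread may be part of theirs. The 14 mitochondrial peaks of replicate 5 were left out.

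Summits were assigned to gene windows with Python 3.11.15, figures were drawn with matplotlib 3.10.9, and replicate peaks were matched within 100 bp. On the reference, 99.9% of 31805 annotated start codons read ATG. Peak assignment was tested on made-up peaks of known position. The members and lists were chosen with earlier results of these data known. The named genes were the 9 members, up to 4 genes with the strongest optimal summit from each other list, and the 3 genes most like the leading member; kin-29, daf-5 and daf-12 were added outside this rule. The alternatives were other upstream reaches, peak numbers, assignments, motif windows, matching distances and leaving out each replicate. With 1 group, no condition was compared and no p-value was computed.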

Additional observations from a re-analysis of the deposited data

Results flagged for a closer look

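In 5 of the 10 rank series compared over the 4 replicates, 1 replicate stood far from the others, by the gap to its nearest neighbour as a share of the range. Chance gives this in about 1 of 20 series of normally distributed values. These are skewed ranks, some of them of shared peaks, and the rate for such series was not tested. Of 2 counts compared in the same way, neither stood out. At the sma-2 window the strongest peak ranked 18875 in replicate 4, and between 2594 and 2958 in the other replicates. At the sma-3 window it ranked 629 in replicate 4, against 2994 to 3210 elsewhere. The lon-1 window had rank 9891 in replicate 1, against 1874 to 2718. The sma-3 promoter summit had rank 19381 in replicate 2, against 629 to 3210. The inner sma-9 summit, 2986 bp downstream, had rank 11158 in replicate 2, against 364 to 896.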

How the results depend on the processing

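The 3 genes with an optimal summit, the 5 summits and the 2 with WGATAR were the starting values. Reaches of 1000 bp and 2000 bp upstream each left 2 genes, 3 summits and 1 with the motif. The 523 strongest optimal peaks left 1 gene, sma-9, with 2 summits and 1 with the motif, and leaving out sma-9, chosen after seeing the data, left 2 summits. Assignment to the nearest 5′ end only left 2 genes, 4 summits and 1 with the motif. The motif count was 1 within 25 bp, 3 within 100 bp and 3 in the whole peak interval. It was 1 for TGATAA alone and 4 for the GATA core, motifs found within 50 bp of 25.6% and 59.8% of all optimal summits. A reach of 10000 bp added lon-1, for 4 genes, 6 summits and 3 with the motif. A longer reach gives every gene more room for a summit. Shares over all genes or all optimal summits are not given for the other settings, so those counts have no background beside them.

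Requiring each optimal summit to be among the strongest peaks of at least 2 of the remaining replicates, with each replicate left out in turn, gave 1 gene (sma-9) each time, 1 to 2 summits, and 1 with the motif. This rule is stricter than the optimal list. The genes with a strongest peak anywhere in the window in at least 2 replicates numbered 1 with each replicate left out. They numbered 2 for a reach of 10000 bp and for the strongest 2000 peaks (sma-9 and lon-1), and 6 for the strongest 5000. At 2000 peaks, lon-1 passed with rank 1874 in replicate 2 and rank 1940 in replicate 4. The summit of rank 1940 was listed in replicate 4 only. The share of all genes at these looser settings is not given, so the counts have no background beside them. Matching within 50 bp gave median ranks of 23890.5 and 6027 at the sma-9 summits 1769 bp and 2986 bp downstream, against 9476 and 652 at 100 bp. It gave 2822 at the upstream sma-9 summit, against 873, and 11276.5 at sma-3, against 3191, and left sma-4 at 17863.5. With each replicate left out in turn, the median rank ran from 5726 to 30001 (past the list's end) at sma-4 and from 1172 to 17780 at the sma-9 summit 1769 bp downstream. It ran from 142 to 1604 at the upstream sma-9 summit, from 408 to 896 at that 2986 bp downstream, and from 3172 to 3210 at sma-3. No paired analysis was possible because there was 1 group. Read depth is unknown, so an unlisted peak is not an absent one, and which gene a distant peak acts on was not tested.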
